A study of Mus musculus with 9 samples.

Results

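The 10 genes described here encode subunits of the transcription factor NF-kB, proteins that feed back on it, and the cytokine-induced Tnfaip2. They were read from the rows of the deposited table with the symbols Nfkb1, Nfkb2, Rela, Relb, Nfkbia, Nfkbie, Nfkbiz, Tnfaip2, Tnfaip3 and Birc3. All 10 were found among the 54532 genes of the table, and all 10 had enough reads to be tested. The cells were 4T1, an established line from a mouse mammary carcinoma that serves as a triple-negative breast cancer model. They were grown in high glucose medium with serum and were left in medium (Control) or given Cu-TCPP(Fe)-PEG (Cu_TCPP), which the labels describe as consuming glutathione (GSH), or else Au/Cu-TCPP(Fe)-PEG (Au_TCPP), described as also acting as a glucose-like oxidase. The treatments lasted 24 h, each group has 3 libraries, and no dose is given in the sources used here. Whether the 3 libraries of a group are separate cultures is not said in the labels, and the p-values cover the spread between these samples only, which may be technical.

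NF-kB is a dimer of Rel family proteins that is held inactive in the cytoplasm by inhibitors of the IkB family. In the canonical arm, signals from cytokine or pattern receptors activate the IKK kinase, the IkB protein is degraded, and dimers of RelA with the Nfkb1 product enter the nucleus. In the alternative arm, the Nfkb2 product is processed and acts with RelB. Many of the genes switched on encode the pathway's own inhibitors, so that IkB alpha (Nfkbia) and the ubiquitin-editing enzyme A20 (Tnfaip3) are used as readouts of recent NF-kB activity.

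The regulatory sequences are shown first because several of these genes are textbook targets of the factor they belong to. RefSeq (GRCm38.p6) promoter sequences matched 7 of the 10 genes; Nfkb1, Relb and Nfkbiz had no entry. The 250 bases before the start were searched on both strands, with overlapping matches allowed, for the kappaB consensus, the motif bound by NF-kB. The consensus was found before 5 of the 7 genes (Nfkb2, Nfkbia, Nfkbie, Tnfaip2 and Tnfaip3), counting a gene if any of its promoters matched. It was found in 7.25% of the 32851 promoters of the table, counted per promoter, so the shares are of unlike units. As several of these genes are textbook targets, the contrast is no test. A match describes the letters and is not evidence of binding. The sequences below run 5′ to 3′ on the strand of the gene, with kappaB matches in capitals. They end at the base before the start RefSeq gives. The first 3 genes below fell with Cu_TCPP, whereas no change of Nfkb2 or Rela passed there. Birc3, with 0 matches, and Tnfaip2, with 1, are not printed and also fell with Cu_TCPP. A link between matches and response was not tested.
Nfkbia, chr12:55492648-55492897, minus strand: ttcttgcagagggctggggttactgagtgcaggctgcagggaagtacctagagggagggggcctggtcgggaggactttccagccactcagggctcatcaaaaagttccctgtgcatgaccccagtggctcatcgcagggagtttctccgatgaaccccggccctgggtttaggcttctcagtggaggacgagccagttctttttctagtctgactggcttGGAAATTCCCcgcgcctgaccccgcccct
Tnfaip3, chr10:19015411-19015660, minus strand: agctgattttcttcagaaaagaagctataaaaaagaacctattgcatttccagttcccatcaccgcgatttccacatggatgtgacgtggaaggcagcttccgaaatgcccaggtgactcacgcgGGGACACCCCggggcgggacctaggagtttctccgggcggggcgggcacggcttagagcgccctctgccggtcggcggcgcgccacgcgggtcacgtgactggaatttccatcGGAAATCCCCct
Nfkbie, chr17:45555450-45555699, plus strand: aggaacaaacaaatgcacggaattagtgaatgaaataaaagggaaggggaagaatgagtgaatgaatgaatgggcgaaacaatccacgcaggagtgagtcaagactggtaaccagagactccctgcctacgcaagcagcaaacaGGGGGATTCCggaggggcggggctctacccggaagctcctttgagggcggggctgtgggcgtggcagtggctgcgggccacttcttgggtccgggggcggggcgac
Nfkb2, chr19:46304487-46304736, plus strand: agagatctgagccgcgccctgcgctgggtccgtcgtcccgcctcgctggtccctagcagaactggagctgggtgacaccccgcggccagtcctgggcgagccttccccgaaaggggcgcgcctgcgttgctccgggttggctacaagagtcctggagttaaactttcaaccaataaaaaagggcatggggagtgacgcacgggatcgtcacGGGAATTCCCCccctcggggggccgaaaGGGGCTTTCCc
Rela, chr19:5637291-5637540, plus strand: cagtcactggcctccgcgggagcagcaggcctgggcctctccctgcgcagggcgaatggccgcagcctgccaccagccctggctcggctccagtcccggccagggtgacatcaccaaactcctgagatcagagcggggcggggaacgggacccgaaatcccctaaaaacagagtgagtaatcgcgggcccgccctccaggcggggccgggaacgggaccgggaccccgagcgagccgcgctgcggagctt
The Nfkbia match lies 29 to 20 bases before the start and, read on the opposite strand, is GGGAATTTCC. Tnfaip3 has a match 12 to 3 bases before its start, GGGGATTTCC on the opposite strand, and another 125 to 116 bases before it that reads as a match on both strands. In Nfkbie the match GGGGGATTCC lies 106 to 97 bases before the start. The Nfkb2 promoter, the first of 3 in the table, has overlapping matches on both strands 39 to 29 bases before the start and GGGGCTTTCC 11 to 2 bases before it. The Rela window holds none. The RefSeq start can differ from that of the deposited table: 247 of the 250 bases shown for Tnfaip3 (the first of 2 promoters in the RefSeq table) and 58 of those for Rela lie inside the gene as that table bounds it, and none of those for Nfkbia, Nfkbie and Nfkb2.

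The 9 libraries held 15477324 to 17494776 counts each. Genes that mark epithelial cells summed to 2912 to 5463 CPM (counts scaled to library size with TMM factors) in every library, and none of the 10 was at 0 throughout. Of 12 macrophage markers 3 had enough reads to be tested, and Adgre1, Tyrobp and C1qa had no read in any library. The macrophage list summed to 40.9 to 44.2 CPM in Control, 27.8 to 31.5 CPM in Cu_TCPP and 79.9 to 98.4 CPM in Au_TCPP; its part in the results below was not tested. Lymphocyte markers summed to 0.743 to 4.18 CPM, fibroblast markers to 16.3 to 40.6 CPM and endothelial markers to 30.4 to 46.3 CPM. Levels are bulk values, in which fewer cells and less RNA per cell cannot be told apart. Averaged over counts, gene length was 4549 to 4669 nt in Au_TCPP and 5601 to 5754 nt in the other 6 libraries. Au_TCPP replicate 2 stands apart, with 2.37% of its counts from mitochondrially encoded genes against 1.09 to 1.47% elsewhere. Some results with Au_TCPP are therefore also given without it, but not every value that changes. Scaling by library totals alone shifts the median log2 fold change of all genes with Au_TCPP to -0.43 against Control and to -0.33 against Cu_TCPP.

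In untreated cells the members spanned a wide range of levels. Per kilobase of gene length, Nfkbia was highest at 122 ± 2.33 CPM per kb (SD, n = 3, as throughout). Tnfaip2, a cytokine-induced gene, followed at 81.9 ± 2.22 CPM per kb, then Nfkb2 at 62.6 ± 0.521 CPM per kb. Rela (28 ± 0.664 CPM per kb), Nfkbiz (26.5 ± 0.0881 CPM per kb) and Nfkb1 (17.9 ± 0.511 CPM per kb) formed the middle of the order. Tnfaip3, Relb and Nfkbie lay between 10.3 and 6.54 CPM per kb, and Birc3 was lowest at 0.97 ± 0.0632 CPM per kb. With the deposited gene lengths, no 2 neighbours in this order had overlapping libraries in Control. GENCODE M21 gives longer exonic lengths for Rela (3072 against 2716 nt) and Nfkb2 (4584 against 3289 nt). The places of these genes in the order therefore depend on the length used, and were not recomputed. With Au_TCPP the top of the order changed: Tnfaip2, Rela, Nfkbia and Nfkb2 stood at 80.1 ± 20.9, 59.2 ± 10.4, 56.9 ± 16.4 and 44.8 ± 5.25 CPM per kb, and each of these overlapped the next.

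**Figure D1:**
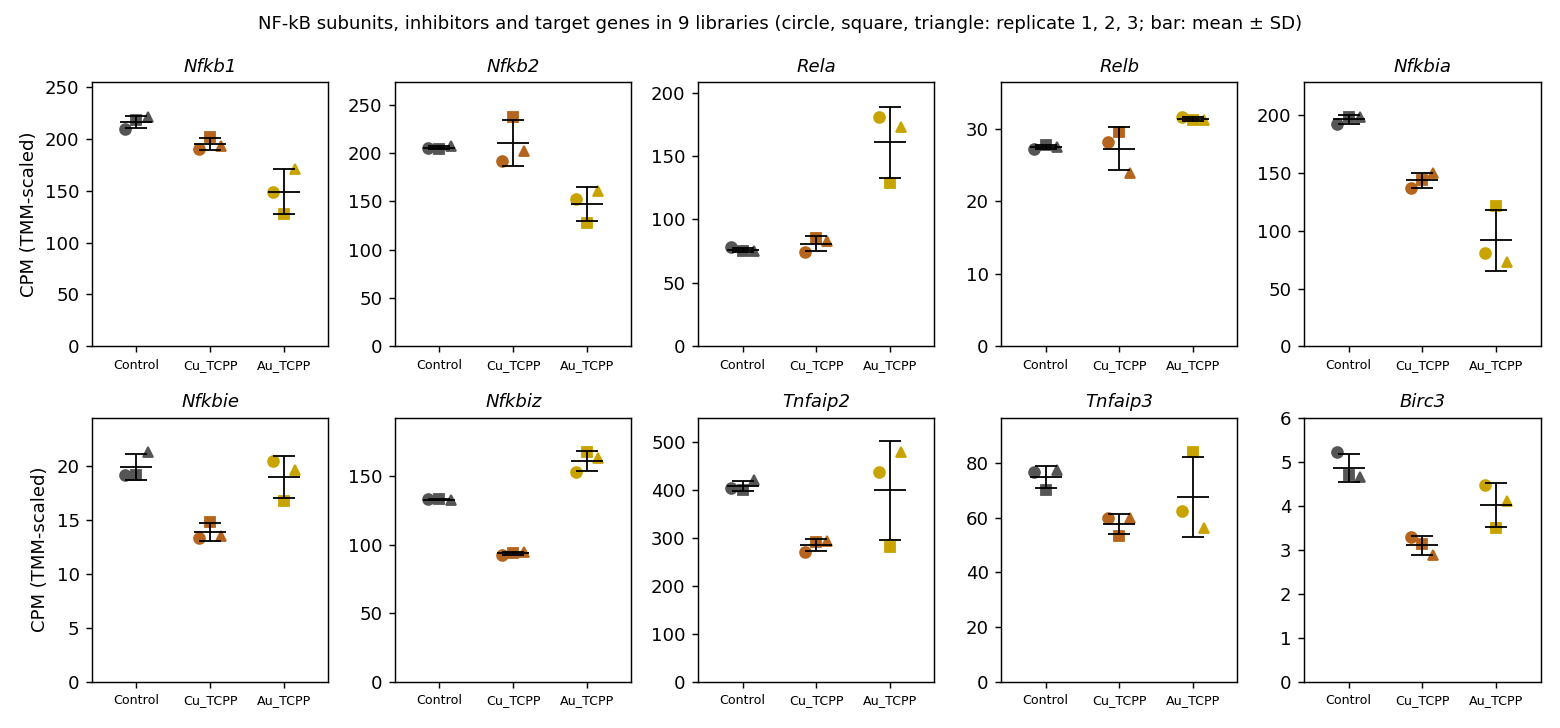
TMM-scaled CPM (y axis, from 0) of the 10 members in each of the 9 libraries, by group (x axis); circle, square and triangle are replicates 1, 2 and 3, and bars are the mean ± SD of 3 libraries. Nfkbiz, Nfkbie, Tnfaip2, Tnfaip3 and Birc3 are lowest in Cu_TCPP by group mean, Rela is highest in Au_TCPP, and in Au_TCPP the square (replicate 2) lies away from the other 2 libraries for Nfkbia, Rela, Tnfaip2 and Tnfaip3.

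Cu_TCPP against Control asks what the GSH-consuming material changed. The inhibitors and target genes fell and none of the subunits passed: 6 of the 10 members were called lower (Nfkbia, Nfkbie, Nfkbiz, Tnfaip2, Tnfaip3 and Birc3) and 0 higher, where 21.2% of the 13915 genes tested were called lower and 19.2% higher, or 40.4% either way. A gene is called when its adjusted p is under 0.05 in edgeR's quasi-likelihood test with Benjamini-Hochberg adjustment over all genes tested, which gives every adjusted p below unless another test is named. The median log2 fold change of the 10 was -0.41, beside -0.01 over all genes tested. In 7 of the 10 the Cu_TCPP libraries all lay below Control, as they did for 30.0% of genes, and in no member did they all lie above it, as they did for 29.4% (59.4% either way).

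Among the inhibitors, Nfkbia (ENSMUSG00000021025, mm10 chromosome 12, 55489410 to 55492647) stood at 192, 199 and 199 CPM in Control replicates 1, 2 and 3 and at 137, 144 and 150 CPM in Cu_TCPP. The groups were far apart relative to their spread. Positions are whole genes as the deposited table gives them. It fell 1.37-fold, a log2 fold change of -0.45 (SE 0.143, adjusted p = 0.023). Nfkbie (chromosome 17, 45555703 to 45563169), which encodes the related IkB epsilon, stood at 19.2, 19.2 and 21.3 CPM in Control and at 13.3, 14.9 and 13.5 CPM with Cu_TCPP, with no overlap. Its log2 fold change was -0.52 (SE 0.114, adjusted p = 0.0023).

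Nfkbiz (chromosome 16, 55811375 to 55838899) encodes IkB zeta, a nuclear IkB protein that works with NF-kB on a subset of its targets. Its libraries were the tightest of the set, at 133, 133 and 132 CPM in Control and 92.2, 93.7 and 94.8 CPM with Cu_TCPP. It fell 1.42-fold with no overlap (log2 fold change -0.51, SE 0.0748, adjusted p = 1.2e-04). Tnfaip3 (chromosome 10, 19000910 to 19015657), whose product A20 removes activating ubiquitin chains upstream of IKK, stood at 76.9, 70.1 and 77.3 CPM in Control and 59.8, 53.5 and 59.7 CPM with Cu_TCPP. The groups did not overlap, and it fell 1.3-fold (log2 fold change -0.37, SE 0.121, adjusted p = 0.023).

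Tnfaip2 (mm10 chromosome 12, 111442469 to 111455018) had 404, 399 and 421 CPM in Control and 271, 292 and 294 CPM with Cu_TCPP. It fell 1.43-fold without overlap (log2 fold change -0.51, SE 0.147, adjusted p = 0.013). In GENCODE M21 it shares 314 exonic nt with Gm40578 on the other strand, which had 1 to 9 reads per library. Birc3 (chromosome 9, 7848699 to 7873186) encodes c-IAP2, a ubiquitin ligase of the TNF receptor complex that also restrains the alternative arm. It was scarce, with 85 to 94 reads per Control library and 51 to 59 reads with Cu_TCPP, or 5.22, 4.69 and 4.66 against 3.29, 3.13 and 2.88 CPM. It fell 1.57-fold (log2 fold change -0.65, SE 0.183, adjusted p = 0.012), the largest fold of the 10 in this comparison.

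The subunits gave small differences. Nfkb1, which encodes the precursor of p50, stood at 210, 218 and 221 CPM in Control and 191, 202 and 193 CPM with Cu_TCPP. All Cu_TCPP libraries lay lower, but the log2 fold change of -0.15 (95% interval -0.36 to 0.06) did not pass (adjusted p = 0.25; 0.03 in a fit of these 6 libraries alone). For Nfkb2, the precursor of p52, the interval ran from -0.19 to 0.25, for Rela from -0.15 to 0.33 and for Relb from -0.22 to 0.19, so that changes of these sizes are not shown to be absent.

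The 9 libraries share 1 spread per gene, so the wide Au_TCPP group enters these tests. In a fit of the 6 libraries alone the adjusted p was 4.9e-06 for Nfkbia, 0.00025 for Tnfaip3 and 1.0e-06 for Tnfaip2. Without Au_TCPP replicate 2 the same 6 members were called lower. The number called was 3 without Control replicate 1, Control replicate 3 or Cu_TCPP replicate 1, and the Nfkbia call also ended without Control replicate 2 (0.067) or Cu_TCPP replicate 2 (0.067) and with limma on log2 FPKM (0.06). The Tnfaip3 call ended with length offsets (0.072), with limma on log2 FPKM (0.069 and 0.068), and without Control replicate 1 (0.077) or 3 (0.088) or any of Cu_TCPP replicates 1 (0.052), 2 (0.1) and 3 (0.051). That of Birc3 ended without Control replicate 1 (0.054) or Cu_TCPP replicate 3 (0.053), and that of Tnfaip2 without Control replicate 3 (0.051) or Cu_TCPP replicate 1 (0.061).

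**Figure D2:**
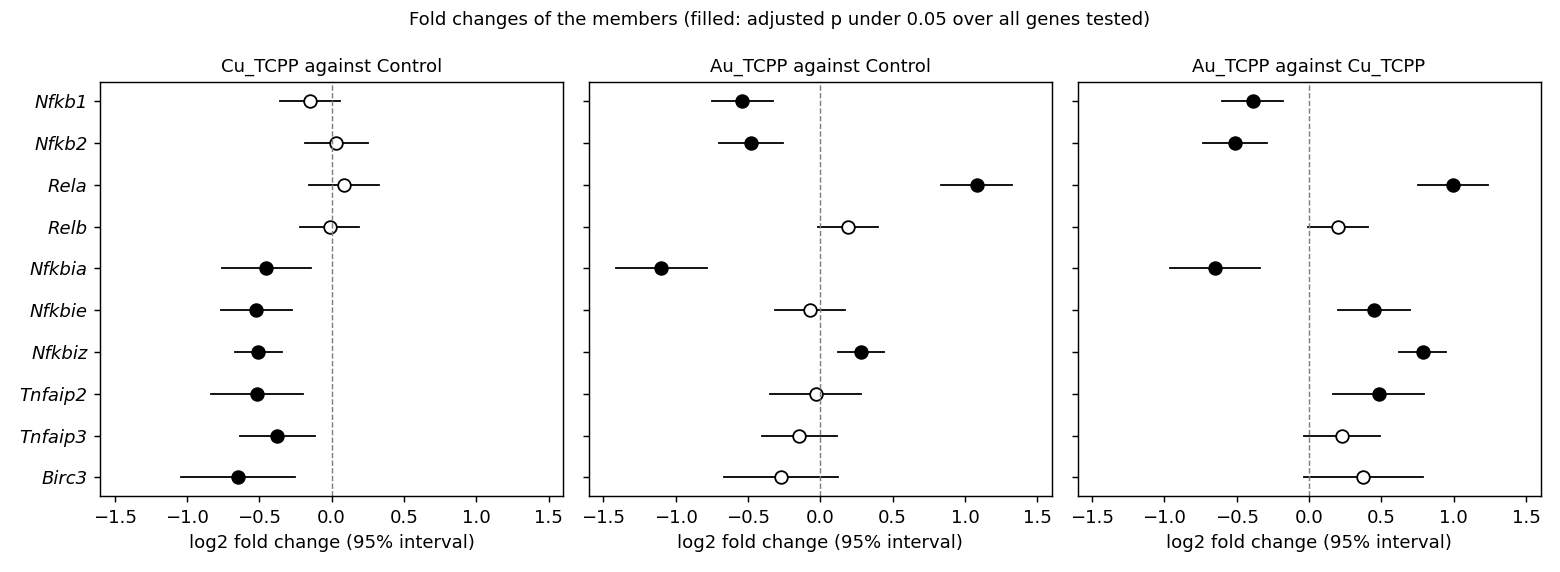
Log2 fold changes of the 10 members (x axis) with 95% intervals from the edgeR fit, in each of the 3 comparisons; filled points have an adjusted p under 0.05 over all 13915 genes tested. With Cu_TCPP the 6 filled points lie between -0.65 and -0.37, whereas with Au_TCPP against Control Rela lies at 1.08 and Nfkbia at -1.1.

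Au_TCPP against Control asks what the gold-bearing material changed. Among the subunits Rela rose 2.11-fold, Nfkb1 and Nfkb2 fell, and Relb did not pass. With length offsets the log2 fold change of Nfkb1 was -0.07 and did not pass. Nfkbia fell 2.14-fold and Nfkbiz rose 1.21-fold. Thus 2 members were called higher and 3 lower, or 20% and 30%. Of the genes tested 34.4% were called higher and 34.7% lower, or 69.1% either way. Neither share of the members exceeds these. The groups did not overlap in 3 members that lay higher and 4 that lay lower, as in 35.3% and 36.6% of genes (71.9% either way). The median of the 10 was -0.11 beside -0.01 over all genes tested. On library totals alone the split was 1 higher and 7 lower, since that scale moves all genes downward together.

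Rela (ENSMUSG00000024927, mm10 chromosome 19, 5637483 to 5648130) encodes the main transactivating subunit. It stood at 78.1, 74.9 and 75.2 CPM in Control, and at 181, 129 and 173 CPM in Au_TCPP replicates 1, 2 and 3. Every Au_TCPP library lay above every Control library, with replicate 2 the lowest of the 3. The log2 fold change was 1.08 (SE 0.113, adjusted p = 8.4e-07), and 1.19 without Au_TCPP replicate 2. It stayed called with library totals alone (0.65, adjusted p = 2.4e-05).

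Nfkb1 (mm10 chromosome 3, 135584655 to 135691547) stood at 148, 128 and 171 CPM with Au_TCPP, all below the 210 to 221 CPM of Control. It fell 1.45-fold (log2 fold change -0.54, SE 0.0992, adjusted p = 2.1e-04). At 12061 nt it is the longest of the 10, and with offsets for gene length its log2 fold change was -0.07 (adjusted p = 0.54). Such offsets take out any difference that follows gene length, whatever its source, and the cause was not tested. Nfkb2 (mm10 chromosome 19, 46304737 to 46312090) stood at 153, 128 and 161 CPM with Au_TCPP against 205, 204 and 208 CPM. It fell 1.4-fold without overlap (log2 fold change -0.48, SE 0.103, adjusted p = 7.9e-04), and the call held with the length offsets. In GENCODE M21 Nfkb2 shares 299 exonic nt with Psd on the other strand, which had 152 to 249 reads per library. It shares 531 nt with the antisense RNA AC114539.1, and whether reads were counted by strand is not stated in the sources. Relb (chromosome 7, 19606217 to 19629438) stood at 31.7, 31.2 and 31.2 CPM against 27.3, 27.8 and 27.5 CPM. All 3 libraries lay higher, but the log2 fold change of 0.19 (95% interval -0.02 to 0.40) did not pass (adjusted p = 0.096; 0.037 with length offsets), and it was -0.23 with library totals alone.

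Nfkbia showed the largest fall, to 80.6, 122 and 72.7 CPM from 192 to 199 CPM. Replicate 2 lay well above the other 2 Au_TCPP libraries and still below Control. The log2 fold change was -1.1 (SE 0.146, adjusted p = 1.3e-05) and -1.38 without replicate 2. Nfkbia was the 1 member called lower with both materials, where 11.8% of genes tested were called lower with both; the comparisons share the Control libraries. Nfkbiz rose to 153, 168 and 163 CPM from 132 to 133 CPM (log2 fold change 0.28, SE 0.0745, adjusted p = 0.0039). The groups did not overlap, but on library totals alone it lay at -0.14 and did not pass (adjusted p = 0.12), and without a filter on low counts its adjusted p was 0.066. In the authors' deposited table the log2 fold changes against Control were 1.07 for Rela and -1.12 for Nfkbia with Au_TCPP, and 0.10 and -0.44 with Cu_TCPP.

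The other members did not pass. Tnfaip3 stood at 62.4, 84 and 56.2 CPM with Au_TCPP, with replicate 2 above and the others below all Control libraries. Its log2 fold change was -0.15 (adjusted p = 0.3), but -0.36 with adjusted p = 7.3e-04 without replicate 2, and 0.15 with length offsets. Tnfaip2 stood at 437, 281 and 479 CPM, with replicate 2 below and the others above Control (log2 fold change -0.03, adjusted p = 0.85; 0.14 and 0.079 without replicate 2). Nfkbie, at 20.5, 16.8 and 19.6 CPM, overlapped Control (95% interval of the log2 fold change -0.31 to 0.17). Birc3, at 4.48, 3.5 and 4.1 CPM, lay below Control in every library without passing (adjusted p = 0.2).

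Au_TCPP against Cu_TCPP tests the difference between the materials directly. Nfkbie, Nfkbiz and Tnfaip2 stood higher with Au_TCPP than with Cu_TCPP, and Nfkbia stood lower still: 4 members were called higher (Rela, Nfkbie, Nfkbiz and Tnfaip2) and 3 lower (Nfkb1, Nfkb2 and Nfkbia). Of all genes tested 34.6% were called higher and 31.3% lower, or 65.9% either way. The shares of the members, 40% and 30%, lie near these. The groups did not overlap in 5 members that lay higher and 3 that lay lower, as in 34.4% and 32.6% of genes (67.0% either way). On library totals alone the split was 2 higher and 3 lower, and with length offsets 6 higher and 2 lower. Nfkbiz differed most clearly of the inhibitors, 1.72-fold higher with Au_TCPP (log2 fold change 0.79, SE 0.0752, adjusted p = 3.6e-07) in 3 of 3 libraries. Nfkbie was 1.37-fold higher (log2 fold change 0.45, SE 0.116, adjusted p = 0.0032), a call that ended with library totals alone (0.07, adjusted p = 0.58).

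Rela was 1.99-fold higher with Au_TCPP than with Cu_TCPP, where it stood at 74.2, 85.2 and 83 CPM (log2 fold change 0.99, SE 0.113, adjusted p = 2.2e-06). Nfkb2 was 1.43-fold lower, against 192, 238 and 202 CPM with Cu_TCPP (log2 fold change -0.51, SE 0.103, adjusted p = 4.8e-04). Nfkbia was 1.57-fold lower (log2 fold change -0.65, SE 0.146, adjusted p = 0.0013), and its log2 fold change was -0.94 without Au_TCPP replicate 2. Nfkb1 was 1.31-fold lower (adjusted p = 0.003), a difference of -0.0097 with length offsets (adjusted p = 0.94).

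Tnfaip2 was 1.4-fold higher (adjusted p = 0.01), although Au_TCPP replicate 2, at 281 CPM, lay within the Cu_TCPP range. Without that library its log2 fold change was 0.65 in place of 0.48, and the call ended with library totals alone (log2 fold change 0.10, adjusted p = 0.5), without Cu_TCPP replicate 1 (0.065), without Au_TCPP replicate 1 (0.068) or 3 (0.088), and with limma on log2 FPKM. Tnfaip3, Relb and Birc3 did not pass (adjusted p = 0.11, 0.08 and 0.097). For Tnfaip3 the log2 fold change was 0.0049 without Au_TCPP replicate 2, 0.3 with adjusted p = 0.035 without Au_TCPP replicate 3, and 0.44 with adjusted p = 0.0066 with length offsets.

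Ratios between members within a library do not depend on how libraries are scaled. Per kb, Nfkbia RNA stood at 4.15, 4.47 and 4.46 times that of Rela in Control, at 3.12, 2.86 and 3.05 times with Cu_TCPP and at 0.751, 1.6 and 0.709 times with Au_TCPP. The groups did not overlap, and Au_TCPP replicates 1 and 3 had less Nfkbia than Rela RNA per kb of the deposited lengths. Nfkb1 over Rela was 0.641 ± 0.0325 in Control, 0.545 ± 0.0296 with Cu_TCPP and 0.21 ± 0.0221 with Au_TCPP. For the alternative arm, Nfkb2 over Relb was 8.83 ± 0.133, 9.16 ± 1 and 5.55 ± 0.647. For 3 against 3 libraries a two-sided exact permutation test cannot go below p = 0.1, the value reached by all comparisons of these ratios except Nfkb2 over Relb with Cu_TCPP against Control (exact p = 0.7). A ratio shows that members changed unequally, not which of them changed, and differences in gene length remain in it.

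**Figure D3:**
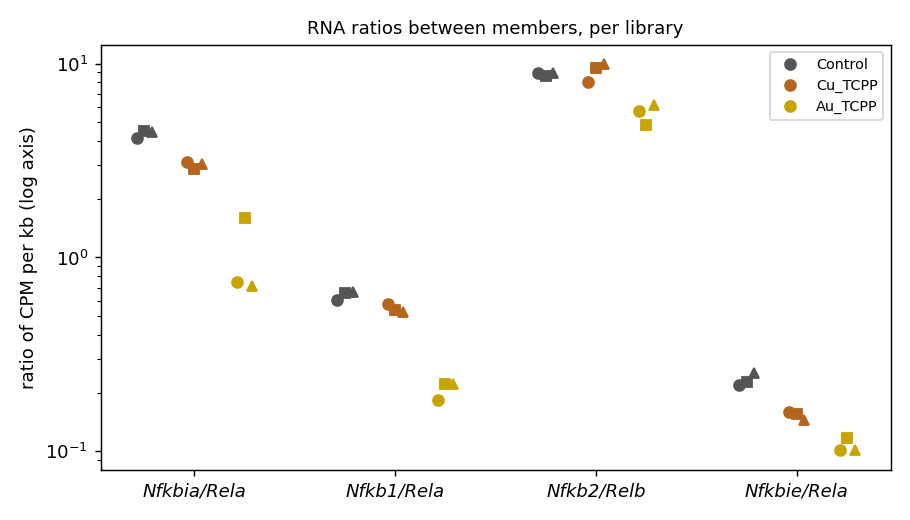
Ratio of CPM per kb between pairs of members (y axis, log scale) in each library, with Control grey, Cu_TCPP brown and Au_TCPP yellow, and replicates 1, 2 and 3 as circle, square and triangle. Nfkbia over Rela falls from 4.15 to 4.47 in Control to 2.86 to 3.12 with Cu_TCPP and 0.709 to 1.6 with Au_TCPP, where replicate 2 is the highest.

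The members did not move as 1 block over the 9 libraries. Nfkb1 and Nfkb2 had the closest profiles of log2 CPM (Pearson r = 0.93), followed by Nfkbie with Tnfaip2 and with Birc3 (both r = 0.89). Rela and Nfkbia ran opposite to each other (r = -0.93). These correlations are over 9 libraries that fall into 3 groups, and describe mainly the differences between groups. Around the group means, Nfkbia and Tnfaip3 deviated together (r = 0.90) and opposite to Tnfaip2 (r = -0.94 and -0.91). Au_TCPP replicate 2 lies apart from the other 2 Au_TCPP libraries in all 3 genes. Profiles were also compared with 9661 other genes of at least 5 CPM on average, leaving out predicted genes, genes with clone names and pseudogenes. Among these, Zfp395, Mov10 and Ssh3 had the profile most like Nfkbia (r = 0.996, 0.995 and 0.993). Tnk2, Pkmyt1 and Tcf3 had that most like Nfkb2 (r = 0.992, 0.989 and 0.987), and Slfn8, Scarb2 and Coq10a that most like Tnfaip3 (r = 0.982, 0.977 and 0.957). Mov10 stood at 115, 75.6 and 49.4 CPM in Control, Cu_TCPP and Au_TCPP by group mean.

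The rest of the pathway was read from 5 lists of other genes. Among 14 other subunits and inhibitors, 3 were called higher and 4 lower with Cu_TCPP, and 5 higher and 6 lower with Au_TCPP, both against Control. These shares, 21.4% and 28.6% with Cu_TCPP and 35.7% and 42.9% with Au_TCPP, lie near those of all genes tested (19.2% and 21.2%, and 34.4% and 34.7%). Nfkbib, which encodes IkB beta, was one of the largest changes with Au_TCPP, at 43.2 ± 2.07 against 17 ± 1.05 CPM (2.54-fold, adjusted p = 4.8e-08), in the direction opposite to Nfkbia. Nkiras1, a Ras-like protein that binds IkB proteins, rose to 20.4 ± 2.48 from 4.7 ± 1.08 CPM, and Rel, the gene of c-Rel, rose 1.33-fold (a log2 fold change of 0.41 that was -0.01 with library totals alone). Zc3h12a, whose product Regnase-1 degrades inflammatory mRNAs, fell 2.84-fold to 22.2 ± 1.05 CPM, and Tnip1, which encodes a partner of A20, fell 1.62-fold. Nkrf, the gene of an NF-kB repressing factor, rose 1.84-fold with Cu_TCPP and 1.38-fold with Au_TCPP (adjusted p = 0.81 for the latter with library totals alone). Commd1, which falls outside the rule for named genes and was chosen after its values were seen, also rose with Au_TCPP (log2 fold change 0.30). Without Control replicate 2 the genes called higher with Au_TCPP numbered 3. Bcl3, a nuclear IkB protein, fell with both materials, from 13.6 ± 0.777 to 8.99 ± 0.58 CPM with Cu_TCPP and 9.9 ± 2.46 CPM with Au_TCPP.

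Of 30 kinases and adaptors between the receptors and NF-kB, 2 were called higher and 7 lower with Cu_TCPP (7 and 4 with length offsets), and 10 higher and 11 lower with Au_TCPP. With Au_TCPP these shares of 33.3% and 36.7% lie near the 34.4% and 34.7% of all genes tested, and with Cu_TCPP the 23.3% called lower lie near 21.2% while 6.67% were called higher beside 19.2%. The IKK subunits diverged with Au_TCPP: Ikbkb, the gene of the catalytic IKK beta, fell to 36.3 ± 1.76 from 76.9 ± 1.34 CPM (adjusted p = 2.8e-08), a log2 fold change of -1.08 that stayed called but was -0.46 with length offsets. Ikbkg, the gene of the regulatory subunit NEMO, rose to 118 ± 11.6 from 63.9 ± 2.83 CPM (adjusted p = 6.3e-07). Chuk, the gene of the other catalytic subunit IKK alpha, rose 1.41-fold with Cu_TCPP (adjusted p = 0.00088). With Au_TCPP it rose 1.26-fold (adjusted p = 0.0062), a value outside the rule for named genes and added after it was seen. Ikbke, the gene of the related kinase IKK epsilon, fell 1.4-fold with Cu_TCPP and 2.93-fold with Au_TCPP. The adaptor gene Myd88 rose 2.76-fold with Au_TCPP, to 63.7 ± 5.43 CPM. With Cu_TCPP, Traf3, whose product restrains the alternative arm, rose 1.61-fold to 124 ± 3.34 CPM, and Irak2, a kinase downstream of interleukin-1 and Toll-like receptors, fell 2.4-fold. Both differed between the materials, Traf3 being 2.4-fold lower and Irak2 2.44-fold higher with Au_TCPP.

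Of 17 receptor genes 15 were tested, of which 1 was called higher (Tnfrsf12a) and 8 lower with Cu_TCPP, or 6.67% and 53.3% beside 19.2% and 21.2% of all genes tested. The median log2 fold change was -0.39, and without Control replicate 2 or 3 the genes called lower numbered 5. Tlr2 fell 2.99-fold to 13.6 ± 0.774 CPM and Tlr4 2.56-fold to 20.1 ± 2.04 CPM, genes of Toll-like receptors for microbial products. Tnfrsf1b, the gene of TNF receptor 2, fell 1.79-fold, and Il1r1, the gene of the interleukin-1 receptor, 1.66-fold. These 4 genes were also called lower with Au_TCPP, where 6 were called higher and 7 lower (40.0% and 46.7% beside 34.4% and 34.7% of all genes tested), and Tnfrsf12a, the receptor of TWEAK, rose 2.78-fold to 657 ± 78 CPM. Tnfrsf9, a costimulatory receptor gene, rose 3.54-fold with Au_TCPP. Without Au_TCPP replicate 1, 3 receptor genes were called higher there. A list of 19 genes covered ubiquitin-conjugating enzymes, ligases, deubiquitinases and their partners. Of these, 5 were called higher and 3 lower with Cu_TCPP, and 8 higher and 4 lower with Au_TCPP. These are 26.3% and 15.8%, and 42.1% and 21.1%, beside 19.2% and 21.2%, and 34.4% and 34.7%, of all genes tested. Spata2, whose product links CYLD to the linear ubiquitin ligase, rose 1.62-fold with Cu_TCPP. Ube2n, the enzyme that builds K63-linked chains, rose 1.59-fold and 2.21-fold with the 2 materials, and Rbck1, a subunit of the linear ubiquitin ligase, fell 1.65-fold with Au_TCPP. Ube2d3 and Cul1 each rose 1.18-fold with Cu_TCPP (adjusted p = 0.035 and 0.045), calls that held in 14 and 11 of 19 alternatives. Ube2v1, chosen after its values were seen, also rose with Cu_TCPP (log2 fold change 0.97, adjusted p = 0.047). With the length offsets none of the ubiquitin list was called lower with Cu_TCPP. On library totals alone the Au_TCPP counts were 5 higher and 10 lower for the ubiquitin list, 4 and 18 for kinases and adaptors, 2 and 8 for the other subunits and inhibitors, and 3 and 8 for receptors.

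Of 49 textbook target genes outside the 10 members, 43 were tested. With Cu_TCPP 4 were called higher and 25 lower (median log2 fold change -0.80; 22 to 27 lower on leaving out 1 library), and with Au_TCPP 22 higher and 11 lower (median 0.47). These are 9.3% and 58.1% beside 19.2% and 21.2% of all genes tested, and 51.2% and 25.6% beside 34.4% and 34.7%. On library totals alone the Au_TCPP split was 16 higher and 12 lower, and without Au_TCPP replicate 2 it was 23 higher and 15 lower. In the direct comparison 33 were called higher with Au_TCPP and 6 lower (median 1.51, beside 0.04 over all genes tested), or 76.7% and 14.0% beside 34.6% and 31.3% of all genes tested. The list was compiled with earlier results of these data known. The chemokine gene Ccl20 fell 17.9-fold with Cu_TCPP, to 1.11 ± 0.286 from 20 ± 1.73 CPM, and stood at 5.55 ± 0.367 CPM with Au_TCPP. Fas, a death receptor gene, fell 4.32-fold with Cu_TCPP and was higher than in Control with Au_TCPP, at 18.9 ± 3.51 against 13.8 ± 0.859 CPM (adjusted p = 0.011). Sod2, a mitochondrial superoxide dismutase gene, was among the 4 called higher with Cu_TCPP, at 96.5 ± 0.911 CPM from 67.9 ± 0.757 CPM.

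With Au_TCPP the largest rises among target genes exceeded those of the members. Csf2, the gene of the cytokine GM-CSF, rose 13.3-fold to 25.4 ± 6.51 from 1.9 ± 0.376 CPM, and Ptgs2, the gene of cyclooxygenase-2, 8.21-fold to 1429 ± 501 CPM. Gadd45b, a stress-response gene, rose 7.07-fold to 279 ± 14.3 CPM. Cx3cl1, a membrane-bound chemokine gene, went the other way, to 29.8 ± 3.76 from 142 ± 8.39 CPM, and so did the adhesion molecule gene Vcam1, at 14.9 ± 2.35 against 36.8 ± 1.55 CPM. The target list thus held genes that rose by more and fell by more than any of the 10 members. The log2 fold changes of the members with Au_TCPP lay between -1.1 and 1.08. The named targets are the largest changes of 43 tested genes, so their wider range shows nothing particular to targets.

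**Figure D4:**
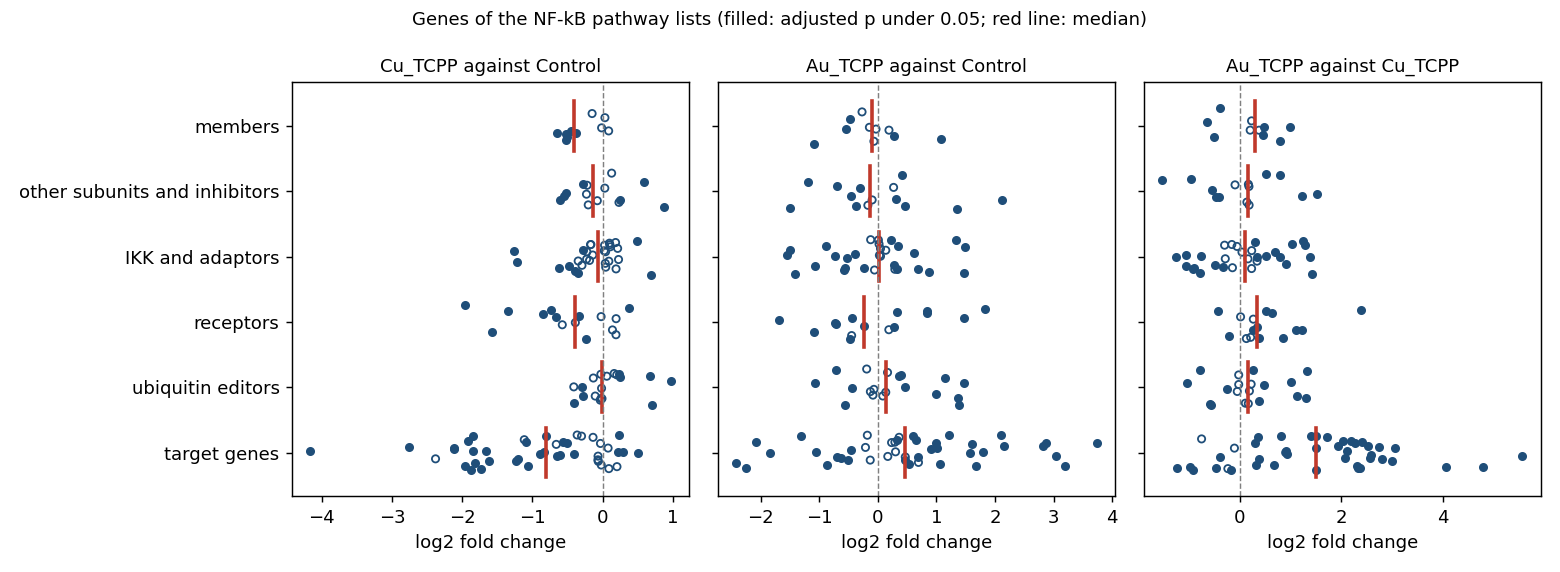
Log2 fold changes (x axis) of the members and of the tested genes of the 5 other pathway lists (rows) in each comparison; filled points have an adjusted p under 0.05, red lines mark list medians, and the vertical scatter within a row has no meaning. The median of the target genes lies at -0.80 with Cu_TCPP and at 0.47 with Au_TCPP against Control, and at 1.51 between the materials.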

How the data were processed

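The 9 libraries were made from the polyadenylated RNA of 4T1 cells, per the labels. Raw read counts of each gene are in the deposited table, per the file headers, and the authors also gave FPKM, which are scaled to gene length and depth. Log2 fold changes and p-values that the authors deposited come from a test that the sources do not name and entered no test here. The deposited group means were not used. The submitters' processing notes name mm10, Bowtie 0.12.9, Cufflinks 2.1.1 and HTSeq, with no strand setting. Totals were 15477324 to 17494776 counts per library, and counting error is largest for Birc3, with 48 to 94 reads.

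Counts were fitted with edgeR 4.0.16 in R 4.3.3 (filterByExpr, TMM factors, robust quasi-likelihood, a mean per group over all 9 libraries) and p-values adjusted by Benjamini-Hochberg over 13915 genes. CPM are scaled by TMM factors, and standard errors are the absolute log2 fold change divided by the square root of F. The common dispersion was 0.0112. Alternatives were RLE factors, library totals, other filters on low counts, DESeq2 1.42.0, the 6 libraries of a comparison, a replicate block, offsets for gene length (spline with 5 degrees of freedom), limma 3.58.1 on log2(FPKM + 1) and log2(FPKM + 0.1), and leaving out each library. A simulation of 13915 genes, with 100 changed at each fold size, was run for Cu_TCPP against Control, Au_TCPP against Control and Au_TCPP against Cu_TCPP. In that order, 82%, 83% and 78% of 2-fold and 58%, 63% and 61% of 1.5-fold changes were recovered. Of 148, 151 and 148 calls, 8, 5 and 9 were false. A far larger share of genes was called in the data (40.4%, 69.1% and 65.9%), so these rates do not describe the comparisons above.

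The members and gene lists were chosen with earlier results of these data known. All members are described. Other pathway genes are named by size of change, up to 4 in each direction per list and comparison, taken from called genes whose higher group averaged 5 CPM or more, and genes of like profile are the first of 5 by Pearson correlation. Coordinates and gene lengths are those of the deposited table. In GENCODE M21, 9 of the 10 members have the same coordinates, the exception being Nfkb2. Exonic length there differs from the deposited length for Nfkb2 and Rela. Libraries of 1 group differed by more than counting noise (chi-square per gene 2.51 to 36.2 over 9 pairs). Tables and figures used Python 3.11.15, pandas 2.3.3, scipy 1.17.1 and matplotlib 3.10.9.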

Additional observations from a re-analysis of the deposited data

How the results depend on the processing

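For the 10 members in 3 comparisons, 513 of 570 alternative values kept their direction and their side of the threshold, 29 lost a call, 10 gained one and 18 changed sign. The calls of Rela, Nfkbia and Nfkb2 in both comparisons with Au_TCPP, of Nfkbiz in Au_TCPP against Cu_TCPP, and of Nfkbie and Nfkbiz in Cu_TCPP against Control held in all 19 alternatives. With library totals alone, the members called against Control with Au_TCPP were 1 higher and 7 lower, and 2 were called higher with Au_TCPP against Cu_TCPP; that scale moves all genes of a library alike. Without a filter on low counts 1 member was called higher with Au_TCPP against Control.

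With library totals alone the signs changed for Nfkb2 with Cu_TCPP (-0.016), for Relb (-0.23) and Nfkbiz (-0.14) with Au_TCPP against Control, and for Relb (-0.17), Tnfaip3 (-0.13) and Birc3 (-0.00059) with Au_TCPP against Cu_TCPP. Relb with Cu_TCPP changed sign with RLE factors (0.016), no filter (0.011), DESeq2 (0.016), length offsets (0.082) and limma on FPKM (0.014 and 0.016). On leaving out 1 library it ranged from -0.062 to 0.075, and Nfkb2 with Cu_TCPP from -0.048 to 0.11. With Au_TCPP against Control, length offsets gave 0.13 for Tnfaip2 and 0.15 for Tnfaip3 while Tnfaip2 ranged from -0.22 to 0.14 on leaving out 1 library. Of these members only Nfkbiz with Au_TCPP was called in the fit of the report. Among other named genes, 2002 of 2109 values kept direction and call, 104 lost a call and 3 changed sign: Rel with Au_TCPP against Control with library totals alone (-0.011), and Il17ra (0.055) and Otud7b (0.032) with Au_TCPP against Cu_TCPP with length offsets. With limma on log2(FPKM + 1), Ccl20 with Cu_TCPP lay at -3.05 in place of -4.16, Nkiras1 with Au_TCPP against Control at 1.33 in place of 2.12, and Csf2 with Au_TCPP against Cu_TCPP at 3.88 in place of 4.80. Causes were not tested.

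Leaving out 1 library, the members called lower with Cu_TCPP numbered 3 to 6, those with Au_TCPP against Control 3 to 4 lower and 2 higher, and those with Au_TCPP against Cu_TCPP 3 to 4 higher. List counts with Cu_TCPP against Control moved by over 1.5 times in at least 1 list without any 1 of the Control or Cu_TCPP libraries, Au_TCPP replicate 2 or Au_TCPP replicate 3. The counts higher and lower then ranged over 1 to 4 and 2 to 5 (other subunits and inhibitors), 2 to 5 and 3 to 8 (kinases and adaptors), 0 to 3 and 5 to 10 (receptors), 2 to 5 and 0 to 4 (ubiquitin), and 2 to 5 and 22 to 27 (targets). Between libraries of the same replicate number, deviations from the group means correlated at -0.0834 to 0.076 over 9 pairs. With 3 libraries per group such values cannot show whether the samples were paired, and the labels state no pairing. With a replicate block the members called were 6 lower with Cu_TCPP, 2 higher and 3 lower with Au_TCPP, and 4 higher and 3 lower between the materials, while all genes called numbered 5508, 9505 and 9059 beside 5617, 9611 and 9176 without it. Depth limits Birc3 most, with 48 to 94 reads per library.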
